A study of Mus musculus with 6 samples.

Results

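Semaphorins and their plexin and neuropilin receptors were followed in N18-Fms cells, a murine prostate cancer line made to express the CSF-1 receptor. Genes were taken by name from the array annotation, as every gene whose symbol gives a semaphorin of class 3 to 7 or a plexin of type A to D, together with Nrp1 and Nrp2. This gave 31 of the 36163 genes named on the array, with 20 semaphorins, 9 plexins and 2 neuropilins, and all 31 symbols are in the RefSeq table of mouse genes. Of the 31 genes, 22 had a signal high enough to be tested, and each of these 22 was well above background on all 6 arrays, so that none entered through a single group. The study stimulated these cells with recombinant CSF-1 and asked which transcripts respond to its receptor.

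N18-CFMS cells, as the labels call the line, were hybridized on single-color Agilent mouse arrays with 2 arrays in each of 3 groups. The Control group was not stimulated, its labels naming it both untreated and vehicle, whereas the 24H CSF1 and 48H CSF1 groups received recombinant murine CSF-1 at 100 ng/mL for 24 h or 48 h. The methods text states other times for the array experiment, and the labelled times are used here. All groups shared the retroviral c-fms receptor, a firefly luciferase vector, serum and dihydrotestosterone in the medium. The line is a single subclone of C2H cells, which were established from a prostate tumor of the TRAMP mouse and secrete CSF-1 of their own, so that the Control group is not free of the ligand. The RNA came from independent experiments, as the labels state, and the 2 arrays of a group carry the only measure of spread.

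Semaphorins are secreted or membrane-bound proteins that share a sema domain and act as guidance cues for axons, migrating cells and vessels. Class 3 members are secreted and most of them bind a neuropilin, which has no signaling domain of its own and works together with a plexin of type A, whereas most membrane-bound members bind plexins directly. Plexins carry a GTPase-activating domain inside the cell that acts on Rap and R-Ras proteins, and their engagement commonly lowers integrin adhesion and rearranges actin. In tumors, these genes are known from both the cancer cells and the surrounding vessels and immune cells.

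The transcripts were read by 60-base probes, and the sequences of 5 probes are given because the results turn on them. Positions are those of the array files, on mouse build mm9, in the sense strand of each gene; exon and UTR annotation was not used here. The first probe is that of Sema7a, the gene with the largest change among the 22, of which the first 30 bases at chr9:57810607-57810636 are shown. The probe of Nrp1, the member with the largest decrease, lies at chr8:131026650-131026709. The Sema3a probe shown lies at chr5:13473453-13473512 and is the less bright of a pair for that gene. Both Sema6d probes are shown since they gave different results. One lies at chr2:124490948-124491007, and the other, brighter probe is given by its last 30 bases, at chr2:124491639-124491668, with a repeat of alternating G and T in capitals.
Sema7a, first 30 bases: tcccttatctcttctcaatgcactttaata
Nrp1: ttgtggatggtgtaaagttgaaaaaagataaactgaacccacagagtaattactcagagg
Sema3a, less bright probe: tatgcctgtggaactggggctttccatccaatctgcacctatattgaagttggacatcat
Sema6d, less bright probe: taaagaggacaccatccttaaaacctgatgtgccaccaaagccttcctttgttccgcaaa
Sema6d, brighter probe, last 30 bases: agaggggcgaGTGTGTGTGTGTGTGTGTGT

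Levels are given as the log2 of the signal relative to the 75th percentile of the array, with the brightest probe standing for a gene, and each level is compared with the same probe's only. Values in parentheses after a log2 fold change are limma's 2-sided p-values, adjusted by Benjamini-Hochberg over the 24648 genes that were tested, and a gene was called at an adjusted p under 0.05. Of the 59305 spots on each array, 58.7% to 72.0% were well above background and 0 were saturated. Slides differed for a single array, the first 24 h replicate. Replicate arrays had correlations of 0.9926 to 0.9936 across the genes tested, which are not independent. With 2 arrays in each group, the smallest p-value of an exact 2-sided test is 0.333, and single genes were judged by the fit across all genes.

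The labels name a prostate cancer line, and its defining markers were partly present. Csf1r, the receptor itself, was well above background on all 6 arrays and its log2 fold changes were 0.22 (0.367) at 24 h and -0.07 (0.793) at 48 h. Androgen receptor, Krt8 and Cldn4 were well above background on all 6 arrays, Krt19 on 5, Krt18 on 3, Epcam on 1, and Cdh1 on 0. Among 10 macrophage markers, Itgam, Emr1 and Ptprc were well above background on all 6 arrays and were not called. Itgam, read by the brightest of its 3 probes, gave -0.43 (0.264) and -0.65 (0.120), and its other probes are not given. Cd68 was well above background on 4 arrays and was not called, and Fcgr1 was on 3 and was not tested. Lyz2, Cd163 and Sfpi1, which encodes the myeloid factor PU.1, were on 0 arrays. Mrc1 rose with log2 fold changes of 4.27 (0.000845) and 3.56 (0.000927), and Cd14 rose as well. The summed level of the macrophage list, as the log2 of the summed relative signals and mostly that of Itgam, was 5.48 and 5.33 in Control, 5.33 and 5.04 at 24 h and 5.16 and 4.73 at 48 h. Of 5 endothelial markers, Cdh5 was higher at both times but well above background on only 1 Control array. Pecam1, on all 6 arrays, and Tek, on 5, were not called, and Emcn and Tie1 were on 0. The sums for the endothelial list were -1.27 and -1.42 in Control, 0.11 and 0.41 at 24 h and 0.09 and 0.41 at 48 h. For 5 fibroblast markers they were 8.33 and 8.31, 7.18 and 7.08, and 7.33 and 6.90, with Col1a1 and Col1a2 lower, Dcn higher at both times, Pdgfra higher at 24 h and Lum on 0 arrays. For 4 neuron markers they were 5.18 and 5.00, 4.99 and 4.80, and 4.81 and 4.34, with Tubb3 higher. Snap25, which made up most of this sum, gave -0.44 (0.258) and -0.67 (0.112), and Rbfox3 and Syt1 were not tested. The 6 epithelial markers summed to -1.41 and -1.10, -0.65 and -0.92, and -0.28 and 0, with Krt8 upregulated by 1.98 (0.0106) at 48 h. The part of these markers in the changes below was not tested. In bulk RNA, fewer cells with a transcript and less of it per cell cannot be told apart.

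At 24 h, 5 of the 22 genes tested were upregulated, Sema7a, Sema6b, Sema4b, Sema3a and Plxna4, beside 8.02% of all genes tested. Nrp1, Plxna2 and Sema3b, 3 of the 22, were downregulated, beside 5.99% of all genes. At 48 h, 7 were upregulated, the same 5 together with Plxna3 and Plxnd1, and 2 were downregulated, Nrp1 and Plxna2. The shares of all genes at 48 h were 6.58% upregulated and 7.38% downregulated. The 2 times are compared with the same Control arrays, so that their counts are not independent of each other. Over the 22 genes the median log2 fold change was 0.07 at 24 h and 0.19 at 48 h, beside 0.037 and -0.044 over all genes tested. Under median centring, which lowered the median of all genes by 0.28 at 24 h, the members' median there was -0.22. At the thresholds the study used, an unadjusted p under 0.05 and a 2-fold change, 7 of the 22 passed at 24 h or 48 h, beside 9.66% of all genes. In 8 members all 4 stimulated arrays lay above both Control arrays, beside 18% of all genes tested, and in 2 all 4 lay below, beside 23.3%.

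**Figure D1:**
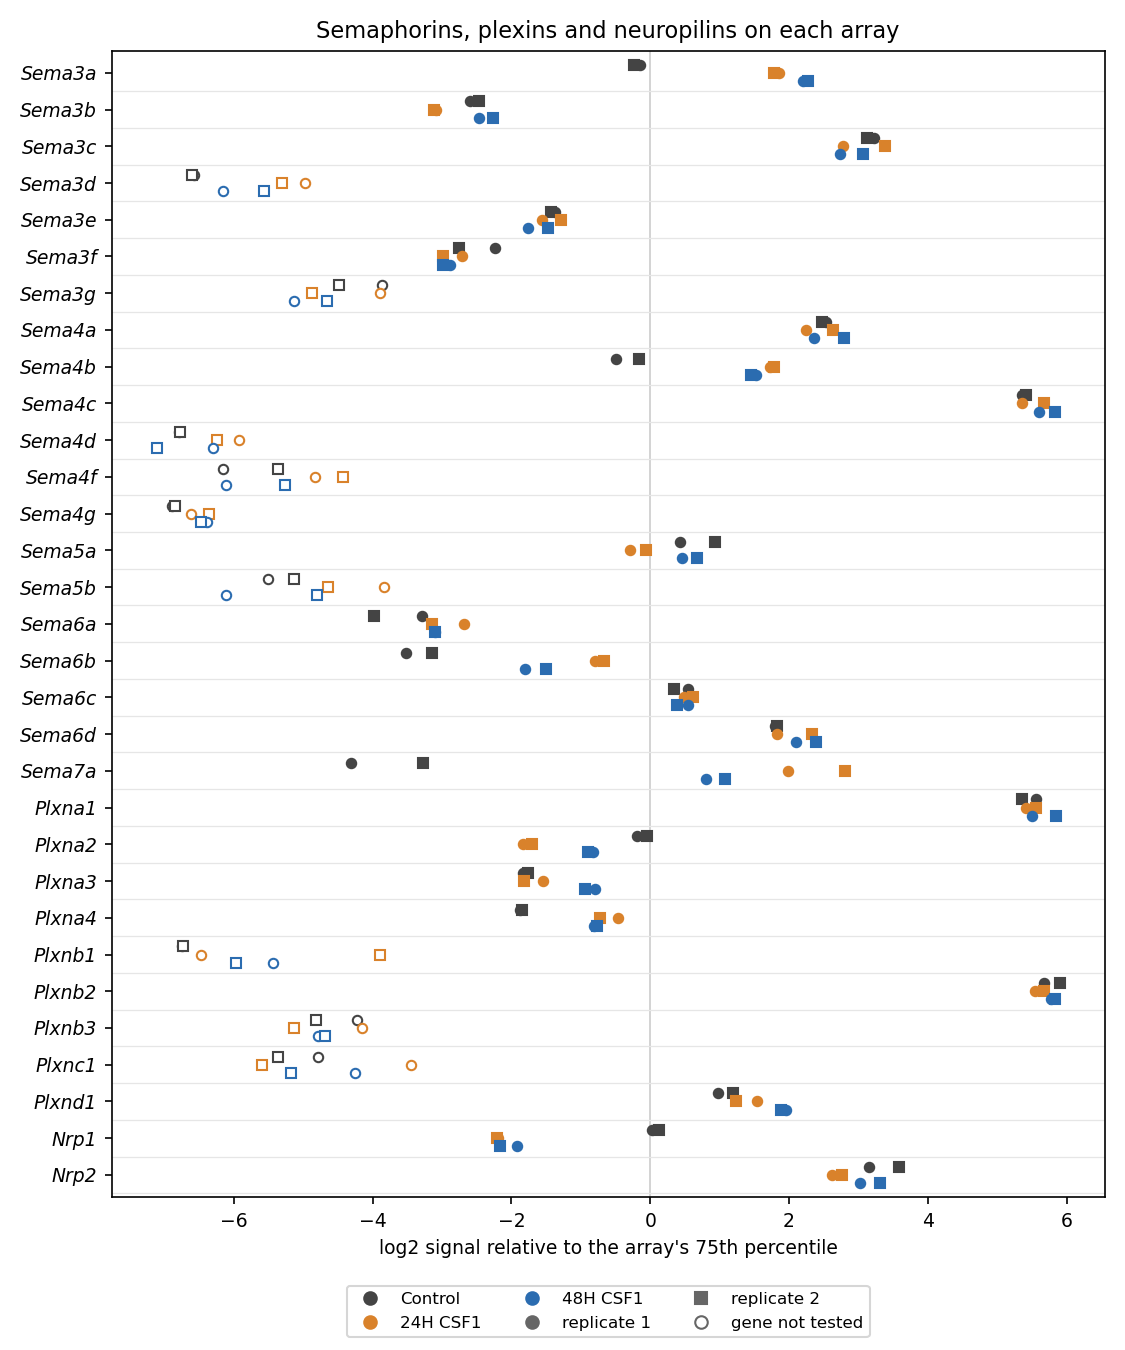
Levels of the 31 semaphorin, plexin and neuropilin genes on each array, as log2 signal relative to the 75th percentile of the array (x axis), for Control, 24H CSF1 and 48H CSF1 and with circles and squares for replicates 1 and 2. Filled symbols are the 22 genes tested and open symbols the 9 that were not. Sema7a lies at -4.31 and -3.27 in Control and at 0.81 or above on the 4 stimulated arrays, and Nrp1 at 0.02 and 0.13 in Control and at -1.92 or below after CSF-1.

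Among the ligands, 4 of the 14 semaphorins tested were upregulated at 24 h and 1 was downregulated, beside 8.02% and 5.99% of all genes. The same 4 were upregulated at 48 h and 0 were downregulated, beside 6.58% and 7.38%. The secreted class 3 had 5 members tested. Sema3a encodes the secreted ligand that causes growth cones to collapse through neuropilin-1 and type A plexins. Its levels were -0.14 and -0.23 in Control, 1.85 and 1.78 at 24 h and 2.20 and 2.28 at 48 h. All stimulated arrays lay above both Control arrays, and those at 48 h above those at 24 h. The log2 fold changes were 1.99 (SE 0.11, 0.00149) and 2.42 (SE 0.11, 0.00102), that is 3.98-fold and 5.36-fold. The less bright Sema3a probe printed above, near position 1036 of the transcript where the brightest starts at 5826, gave differences of 2.15 and 2.55.

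Sema3b encodes a secreted ligand known as a tumor suppressor in epithelial cancers. Its levels were -2.60 and -2.47 in Control, -3.09 and -3.11 at 24 h and -2.47 and -2.27 at 48 h, so that the 24 h arrays alone lay below Control. The log2 fold change was -0.56 (SE 0.12, 0.0430) at 24 h and 0.17 (0.423) at 48 h. This was the weakest of the calls at 24 h, and it was lost when any single array was left out, with adjusted p-values up to 0.167. It was kept under 6 of 18 alternatives, and lost also with normexp background correction, at -0.21 (0.250), without the filter on dim probes (0.114), with an intensity trend (0.0733) and with 2 groups alone (0.0627). Sema3c, Sema3e and Sema3f were not called, with changes between -0.36 and -0.02 at 24 h and between -0.44 and -0.21 at 48 h.

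Of the membrane-bound class 4, 3 members were tested and Sema4b alone was called. Sema4b encodes a transmembrane protein with a PDZ-binding tail. Its levels were -0.50 and -0.16 in Control, 1.73 and 1.78 at 24 h and 1.53 and 1.45 at 48 h, with every stimulated array above both Control arrays. The probe, at chr7:87371351-87371410, gave log2 fold changes of 2.08 (SE 0.15, 0.00283) and 1.82 (SE 0.15, 0.00325), which is 4.24-fold and 3.54-fold. Sema4a, a ligand on antigen-presenting cells, gave -0.07 (0.862) and 0.06 (0.878), with 95% confidence intervals from -0.58 to 0.44 and from -0.45 to 0.57. Sema4c, a ligand of plexin-B2, gave 0.14 (0.619) and 0.34 (0.218), read by a probe with a run of 23 alternating bases that is described further on.

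Class 5 semaphorins carry thrombospondin repeats, and only Sema5a was tested. Its levels were 0.43 and 0.94 in Control, -0.29 and -0.06 at 24 h and 0.46 and 0.68 at 48 h. Both 24 h arrays lay below Control and both 48 h arrays between the Control arrays. The log2 fold change at 24 h was -0.86 with an adjusted p of 0.0524, just outside the threshold, and at 48 h -0.11 (0.772). The 24 h change passed with median centring (0.0299), normexp background correction (0.0151) and an intensity trend (0.0136). It also passed with a replicate block (0.0255) and among genes well above background on all 6 arrays (0.0333), but under none of the other alternatives.

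In class 6, whose members are transmembrane ligands of type A plexins, Sema6b was called among 4 tested. Its levels were -3.52 and -3.14 in Control, -0.79 and -0.66 at 24 h and -1.80 and -1.50 at 48 h. Each stimulated array was above Control, and the 24 h arrays were the higher of the stimulated ones. The log2 fold changes were 2.60 (SE 0.18, 0.00283) and 1.67 (SE 0.18, 0.00739), that is 6.07-fold and 3.19-fold, from a probe at chr17:56262769-56262828. With normexp background correction these were smaller, 1.62 and 0.93. Sema6a had values of -3.29 and -3.98 in Control, -2.69 and -3.14 at 24 h and -3.10 and -3.10 at 48 h, with all stimulated arrays above Control but without a call, at 0.72 (0.142) and 0.54 (0.250). Sema6c gave 0.10 (0.659) and 0.02 (0.930), within 95% confidence intervals from -0.23 to 0.43 and from -0.31 to 0.35.

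Sema6d depended on the probe. The brightest probe, which stood for the gene, read 1.80 and 1.83 in Control, 1.83 and 2.33 at 24 h and 2.10 and 2.39 at 48 h, with log2 fold changes of 0.26 (0.442) and 0.43 (0.228). The other probe, chosen for description after its values were seen, read -3.50 and -3.51 in Control, -0.81 and -1.01 at 24 h and -1.12 and -1.40 at 48 h. Here all stimulated arrays lay more than the replicate spread above Control, by 2.59 (0.00221) and 2.24 (0.00239) in a fit on 34814 probes, in which 7.61% of all probes were upregulated at 24 h and 5.62% at 48 h. Both probes are annotated to the same Sema6d transcript and start at positions 4604 and 3943 of it. With probes averaged within each gene, or with this second probe, Sema6d would be called upregulated, with 6 members upregulated at 24 h and 8 at 48 h.

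The brighter Sema6d probe ends in the run of 20 alternating G and T bases shown above. A run of T and G, or of C and A on the other strand, at least as long was found in 76 of the 55681 probes on the array, 0.136%. Among the members, the Sema4c probe was the other one. All 76 probes passed the signal filter, as did 62.5% of all probes, and 0 of the 76 were called at 24 h or at 48 h, where 12.7% and 11.6% of all probes tested were called in either direction. The median difference of the 76 probes was 0.15 at 24 h and 0.34 at 48 h, with ranges from -0.51 to 0.30 and from -0.87 to 0.64, beside 0.05 and -0.05 over all probes tested. These 76 probes were also bright, with a median level of 4.87 and a range from -0.47 to 6.59, beside a median of -1.21 over all probes tested. The Sema4c and brighter Sema6d probes are themselves among the 76. The part of the repeat in these values was not tested.

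**Figure D2:**
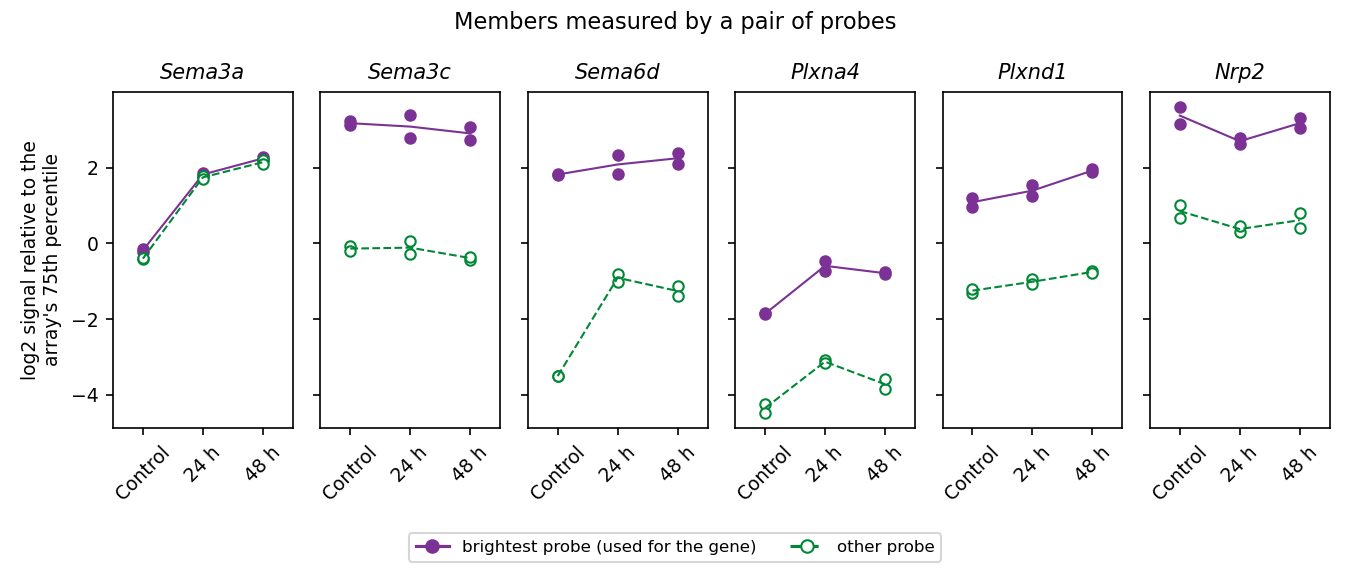
Levels of the 6 members with a pair of probes well above background on at least 5 arrays, as log2 signal relative to the 75th percentile of the array (y axis) in Control and at 24 h and 48 h. Points are arrays and lines join group means, filled and solid for the brightest probe, open and dashed for the other. The probe pairs of Sema3a move together, whereas the less bright Sema6d probe rises from -3.50 and -3.51 to -0.81 and -1.01 at 24 h and the brighter one stays between 1.80 and 2.39.

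Sema7a, the sole member of class 7, is anchored to the membrane by a lipid tail and acts through integrin beta 1 and plexin-C1. It had the largest change of the 22 genes. Its levels were -4.31 and -3.27 in Control, 1.99 and 2.81 at 24 h and 0.81 and 1.08 at 48 h. Every stimulated array lay far above Control, and the 24 h arrays above the 48 h arrays. The log2 fold changes were 6.19 (SE 0.43, 0.00278) and 4.73 (SE 0.43, 0.00436), that is 72.9-fold and 26.6-fold, with 95% confidence intervals from 5.12 to 7.26 and from 3.66 to 5.81. With normexp background correction, whose offset is added to every signal and weighs most on dim ones, they were 4.61 and 3.25, so that the fold depended on how the dim Control signals were treated. Its known receptors were read in the same samples. Itgb1, which encodes integrin beta 1, gave 0.46 (0.175) and 0.27 (0.403). The integrin alpha 1 gene Itga1 was at least 2.14-fold higher at 24 h and at least 1.82-fold higher at 48 h. These are limits because it was not well above background on either Control array. Each limit is the mean of the stimulated arrays over the lowest signal well above background. The call of Itga1, counted further on, came from a test that it entered only through the stimulated groups, where it was high. Plxnc1 was well above background on 1 array and was not tested.

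Among the receptors, 6 of 9 plexins were tested. At 24 h, 1 was upregulated and 1 downregulated, beside 8.02% and 5.99% of all genes. At 48 h, 3 were upregulated and 1 downregulated, beside 6.58% and 7.38%. Plxna4 encodes a type A plexin that serves class 3 and class 6 semaphorins. Its levels were -1.87 and -1.85 in Control, -0.47 and -0.72 at 24 h and -0.81 and -0.77 at 48 h. The groups did not overlap, with log2 fold changes of 1.26 (SE 0.13, 0.00632) and 1.07 (SE 0.13, 0.00925) from a probe at chr6:32094602-32094661. The call at 48 h was lost without either Control array or without 48 h replicate 2, with adjusted p-values up to 0.0590. A second probe gave 1.22 (0.0118) at 24 h and 0.63 (0.0585) at 48 h in the fit on every probe.

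Plxna2 encodes a type A plexin that binds class 6 semaphorins directly and Sema3a together with neuropilin-1. It moved the other way, from -0.19 and -0.05 in Control to -1.83 and -1.71 at 24 h and -0.82 and -0.90 at 48 h. All stimulated arrays were below Control, those at 24 h the lowest. The log2 fold changes were -1.66 (SE 0.12, 0.00284) and -0.75 (SE 0.12, 0.0191), a decrease of 3.15-fold and 1.68-fold, from a probe at chr1:196642958-196643017. At 48 h the call was lost without any of the Control or 48 h arrays, with log2 fold changes from -0.82 to -0.68. It was also lost without the filter on dim probes, with an adjusted p of 0.0763, and at the study's 2-fold threshold.

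Plxna3 and Plxnd1 were called at 48 h alone. Plxna3 encodes the type A plexin that pairs with neuropilin-2 for Sema3f. Its levels were -1.83 and -1.76 in Control, -1.54 and -1.82 at 24 h and -0.79 and -0.94 at 48 h, where the 48 h arrays stood above all others. The changes were 0.12 (0.634) at 24 h and 0.93 (SE 0.14, 0.0168) at 48 h. Plxnd1 encodes the receptor of Sema3e, which binds it without a neuropilin. It read 0.97 and 1.20 in Control, 1.54 and 1.24 at 24 h and 1.95 and 1.89 at 48 h, with changes of 0.31 (0.245) and 0.83 (SE 0.15, 0.0278). A second Plxnd1 probe gave 0.24 (0.252) and 0.49 (0.0567) in the fit on every probe. Both 48 h calls were lost without any single Control or 48 h array, with changes from 0.86 to 1 for Plxna3 and from 0.72 to 0.95 for Plxnd1. They were also lost at the study's 2-fold threshold. Without the filter on dim probes they were lost too, with adjusted p-values of 0.0685 for Plxna3 and 0.0943 for Plxnd1. The difference between 48 h and 24 h itself was 0.82 (0.141) for Plxna3 and 0.52 (0.256) for Plxnd1. Plxna1 and Plxnb2, the type A receptor and the receptor of Sema4c, were not called, with changes of 0.03 and -0.18 at 24 h and 0.21 and 0.02 at 48 h. Their 95% confidence intervals reached from -0.51 to 0.45 at 24 h and from -0.31 to 0.63 at 48 h.

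The neuropilins are co-receptors for class 3 semaphorins and for vascular endothelial growth factors. Nrp1 read 0.02 and 0.13 in Control, -2.20 and -2.21 at 24 h and -1.92 and -2.17 at 48 h. Every stimulated array lay below both Control arrays, and the arrays at 24 h and 48 h lay close together. The log2 fold changes were -2.28 (SE 0.13, 0.00176) and -2.13 (SE 0.13, 0.00164), a decrease of 4.86-fold and 4.37-fold. Nrp1 has a single probe here, the one printed above. Nrp2 read 3.15 and 3.59 in Control, 2.62 and 2.77 at 24 h and 3.03 and 3.31 at 48 h, with changes of -0.68 (0.0781) and -0.20 (0.535). At 24 h both arrays lay below Control without passing the threshold, and a second Nrp2 probe gave -0.48 and -0.24. The 24 h change of Nrp2 passed with median centring (0.0404) and normexp background correction (0.0314). It also passed with an intensity trend (0.0228) and a replicate block (0.0353), but under none of the other alternatives.

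**Figure D3:**
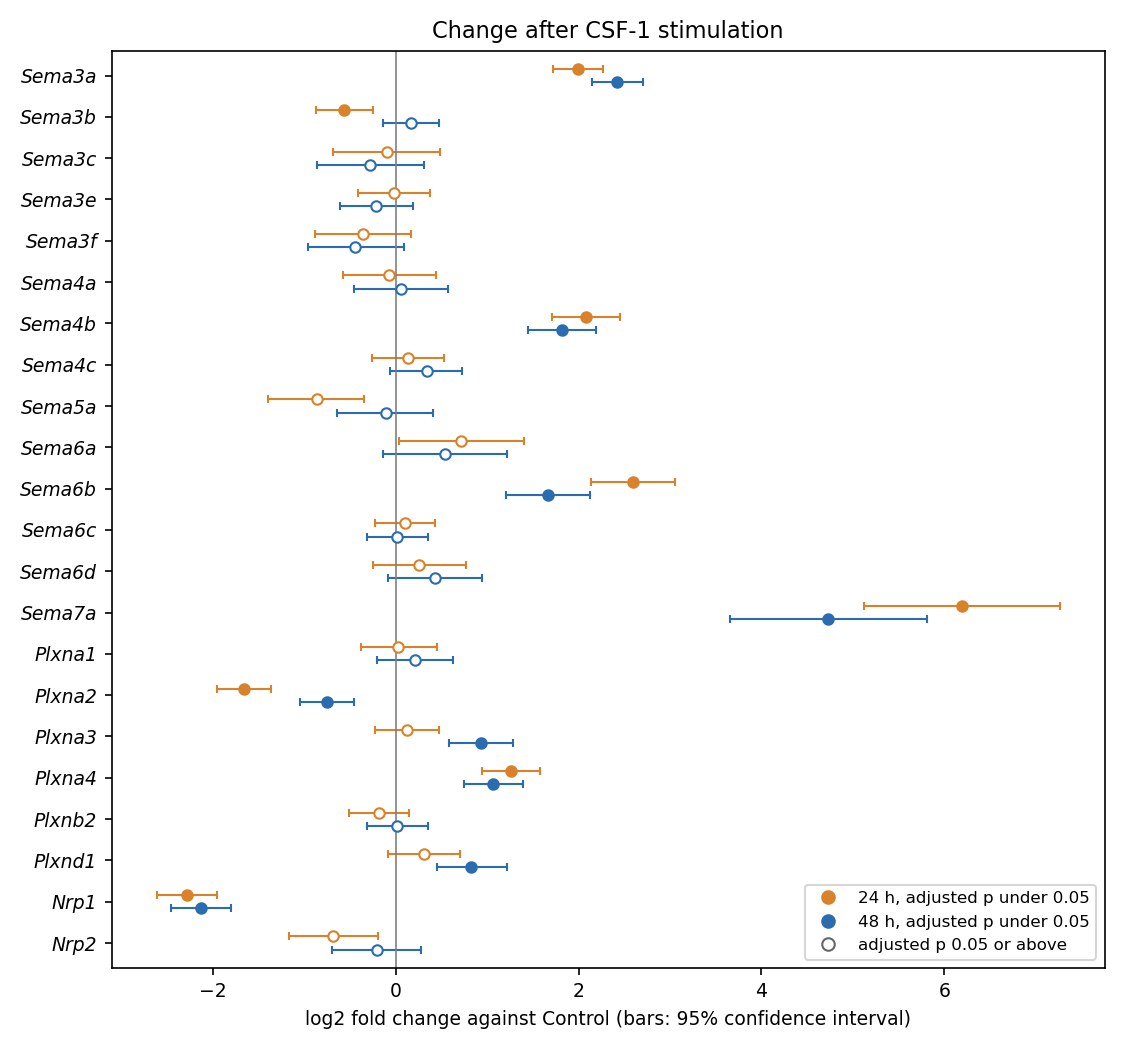
Log2 fold changes against Control at 24 h and 48 h for the 22 genes tested (x axis), with bars for 95% confidence intervals and filled symbols for an adjusted p under 0.05. Sema7a stands at 6.19 and 4.73, Sema3a at 1.99 and 2.42, Sema4b at 2.08 and 1.82 and Sema6b at 2.60 and 1.67, while Nrp1 lies at -2.28 and -2.13 and Plxna2 at -1.66 and -0.75.

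The 2 times were also compared directly. No member passed an adjusted p under 0.05, as was the case for 0% of all genes tested, and 8 of the 22 had an unadjusted p under 0.05 in limma's test, beside 13.6% of all genes. The smallest adjusted p was that of Plxna2, with a log2 difference of 0.91 for 48 h minus 24 h (SE 0.12, adjusted p = 0.116, 95% confidence interval from 0.62 to 1.21). The same difference was -1.45 (0.256) for Sema7a, -0.93 (0.157) for Sema6b, 0.73 (0.141) for Sema3b and 0.43 (0.211) for Sema3a. For Nrp1 the difference was 0.15 (0.648), with a 95% confidence interval from -0.17 to 0.48. With normexp background correction Sema7a, Sema6b and Plxna2 were called between the times, and with an intensity trend in the prior Plxna2 was.

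The 9 genes that were not tested were Sema3d, Sema4d, Sema4f and Sema4g, well above background on 0 arrays, and Sema3g, Sema5b, Plxnb1, Plxnb3 and Plxnc1, well above background on 1 to 3 arrays. Sema4d encodes a ligand of plexin-B1, and neither was read above background on both arrays of any group. Plxnb1 was well above background on 1 array of the 6, the second 24 h replicate, at -3.89, where the other arrays read -6.75 to -5.44. No fold change is given for these genes, whose signals were too dim for the reported fit.

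The other genes of the pathway were described from lists chosen with earlier results of these data known. Of 22 other receptors and ligands that meet semaphorin receptors, 16 were tested. At 24 h, 3 were upregulated and 1 downregulated, beside 8.02% and 5.99% of all genes. At 48 h the same 3 were upregulated and 0 downregulated, beside 6.58% and 7.38%. Vegfa, the growth factor that competes with Sema3a for neuropilin-1, rose by 2.39 (0.00576) and 1.61 (0.0152). Nrcam, an adhesion molecule that joins neuropilin receptor complexes, rose by 2.07 (0.0178) and 1.72 (0.0287), and Itga1, described above, was the third. Itga1 entered the test only through the stimulated groups, where it was high, and without it 2 genes were upregulated at both times. Vegfb changed by -0.49 (0.0428) at 24 h and by -0.11 (0.564) at 48 h. The median of the 16 genes was 0.03 at 24 h and 0 at 48 h.

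All 36 genes listed for signaling downstream of plexins were tested, with 5 upregulated and 6 downregulated at 24 h, beside 8.02% and 5.99% of all genes, and 5 upregulated and 7 downregulated at 48 h, beside 6.58% and 7.38%. Among those upregulated were kinases that act below plexins. Fes, which phosphorylates the cytoplasmic part of type A plexins, gave 1.28 (0.0104) and 1.09 (0.0167), Pak1, an effector of Rac, 1.1 (0.0111) and 0.92 (0.0185), and Fyn, a kinase bound to plexin-A2, 0.95 (0.0281) and 0.88 (0.0342). Rnd3, which encodes a GTPase of the family that binds plexins, fell by 1.49 (0.00597) and by 1.21 (0.00948) on the log2 scale. Rras2, related to the R-Ras substrate of plexins, gave -0.89 (0.0226) and -1.23 (0.0105), and Dpysl3, a collapsin response mediator protein gene, -0.81 (0.0115) and -0.97 (0.00754). Rras, which encodes R-Ras itself and is named here beside Rras2 after its values were seen, gave 0.10 (0.605) at 24 h and was upregulated at 48 h, with 0.65 (0.0244). The median of the list was 0 at 24 h and 0.11 at 48 h.

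Of 34 genes of the other axon guidance families, 25 were tested, with 1 upregulated and 1 downregulated at 24 h and 1 upregulated and 2 downregulated at 48 h. These counts were near or below the shares of all genes, 8.02% and 5.99% at 24 h and 6.58% and 7.38% at 48 h. The genes called were Slit2, a ligand of Robo receptors, at 0.90 (0.0357) at 24 h and Efna1, an ephrin, at 0.91 (0.0286) at 48 h. Those downregulated were the netrin genes Ntn1 at 24 h, with -0.55 (0.0320), and Ntn4 at 48 h, with -1.66 (0.0364), and the netrin receptor gene Unc5c at 48 h, with -1.91 (0.0407). Ntn4 and Unc5c were well above background on both Control arrays but on only 1 array of each stimulated group, so that they entered the test through Control, the group where they were high, and their changes rest on dim stimulated signals.

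Promoter sequence was examined because several members rose and because CSF-1R signaling is known to reach STAT, interferon-regulated and AP-1 factors. RefSeq promoters of build GRCm38.p6, each with 250 bases before and 50 after a gene's start, were held for 26 of the 31 members. The STAT motif TTCNNNGAA was found on either strand in 8.30% of all 32851 windows. Among the 37 windows of members it was in 1, that of Sema3e. The motif AANNGAAA of interferon regulatory factors was in 23.9% of all windows and in 4 of the 37, of Plxnc1, Sema3a, Sema4d and Sema6b. The AP-1 motif TGANTCA was in 7.81% of all windows and in 3 of the 37, of Sema4c, Sema4d and Sema6b. The members' counts were thus near or below the shares of all windows. None of these motifs was found for Sema7a, Sema4b, Nrp1 or Plxna2, which says nothing of sequence outside the windows or of members without one. Sema6b, a called member with 2 of the motifs, has more than 1 start in the table. There AANNGAAA lay 144 to 137 bases before a start, in the stretch at chr17:56140460-56140507 on the minus strand, and the AP-1 motif 48 to 42 bases before another start, in the stretch at chr17:56133874-56133920 on the same strand. A match is a description of the sequence and not a site of binding. The stretches around both matches are shown with the motif in capitals.
Sema6b, interferon regulatory factor motif: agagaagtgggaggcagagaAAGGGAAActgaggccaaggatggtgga
Sema6b, AP-1 motif: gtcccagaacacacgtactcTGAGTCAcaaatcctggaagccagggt

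**Figure D4:**
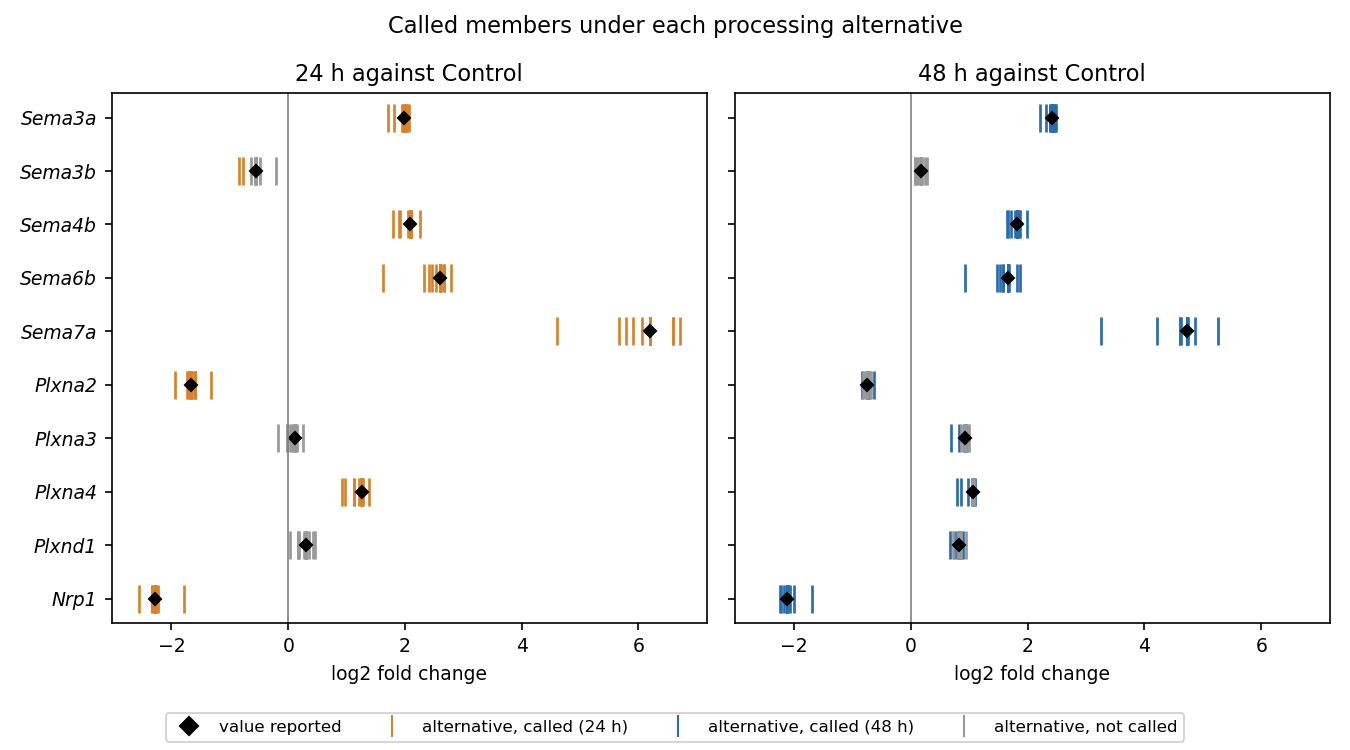
Log2 fold changes of the 10 members called at 24 h or 48 h under each of 18 processing alternatives (vertical ticks, x axis), colored where the adjusted p, or the study's thresholds, kept the call and gray where they did not, with diamonds for the reported value. Ticks of Sema3a, Sema4b, Sema6b, Sema7a and Nrp1 are all colored at both times, and none of the called values changes side of 0. The lowest Sema7a ticks, at 4.61 and 3.25, are those with normexp background correction.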

How the data were processed

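Expression was measured on 6 single-color Agilent arrays. Spots were quantified by the authors with Feature Extraction 11.0.1, and the deposited background-subtracted spot intensity, not normalized between arrays, was used. A second deposited file holds log2 values of 44323 probes. Their differences between arrays were compared with those in the log2 signals after each array's median offset was removed. They then lay within 0.05 of each other in 99.78% of cases. The software for the study's comparisons is named in its methods, and their normalization is not given in the sources used here.

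Spots flagged as outliers were left out, and log2 signals were set relative to each array's 75th percentile over spots other than controls. The brightest probe stood for each gene, which left 36028 genes. A gene was tested if both arrays of any group were well above background, which held for 24648 genes. The test was made with limma 3.58.1 (lmFit and eBayes) in R 4.3.3, with data.table (version 1.17.8), in a single fit on all 6 arrays with 3 residual and 2.39 prior degrees of freedom and Benjamini-Hochberg adjustment. The procedure was tested on simulated data. Groups were taken from the sample labels. The methods give other stimulation times than the labels do.

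Every member is accounted for. Members called at either time are given on every array, and of the pathway lists up to 3 called genes in each direction with the largest mean change are named. The members and lists were chosen with earlier results of these data known. Alternatives were median centring, quantile normalization, normexp background correction with an offset of 50, the authors' log2 values, other filters, the mean of a gene's probes, an intensity trend, 2 groups alone, a replicate block, a slide block, other thresholds, the methods' t-test and leaving out each array. The choice of the second Sema6d probe and the alternatives for the list genes were added after seeing the data. Of the gene lists, a single gene is not reported here. Precision is limited by having 2 arrays in a group.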

Additional observations from a re-analysis of the deposited data

How the results depend on the processing

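Across the alternatives to the processing none of the called changes turned its direction, and the 5 genes Sema3a, Sema4b, Sema6b, Sema7a and Nrp1 were called at both times under each of 18 alternatives, the methods' t-test apart. The methods' t-test, a 2-sided test with equal variance on the same values, gave 5 members upregulated and 3 downregulated at 24 h and 7 and 2 at 48 h at the unadjusted threshold, and 7 between the times, but 0 in each comparison after Benjamini-Hochberg adjustment. Under median centring, which moved the median of all genes by -0.28 at 24 h and -0.10 at 48 h, 5 members were downregulated at 24 h, Nrp2 and Sema5a joining, and the median of the members tested was -0.22 at 24 h and 0.09 at 48 h. With normexp background correction 3 members differed between 48 h and 24 h, and with an intensity trend or at the study's thresholds 1 did. Without the filter on dim probes, or at the study's thresholds, 5 members were upregulated and 1 downregulated at 48 h. Leaving out each array in turn gave 4 to 7 members upregulated and 1 to 2 downregulated at 48 h, 4 upregulated without either Control array or 48 h replicate 2, 5 without 48 h replicate 1, and 1 downregulated without any of these 4 arrays. The median at 48 h then lay between 0.08 and 0.33, the lowest without 48 h replicate 2 and the highest without 48 h replicate 1. At 24 h, 5 were upregulated and 2 downregulated without any one array. With a group down to 1 array, the fit assumes that it varies like the others.

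The labels number the replicates in each group. The deviations of same-numbered arrays from their group means correlated at 0.128, 0.094 and 0.199 across genes, all positive. These values do not settle whether a number marks the same experiment. The reported fit had no replicate block, and any such pairing is left out of it. With the replicate block 5 members were downregulated at 24 h, Nrp2 and Sema5a joining, and the other counts of called members were unchanged. The slide as a block, which amounts to leaving out the first 24 h replicate, gave 2 downregulated at 24 h in place of 3, without Sema3b. With the second probe of Sema6d, an alternative chosen after seeing the data, 6 members were upregulated at 24 h and 8 at 48 h. Of the values of the named list genes under the alternatives, 417 were called or not called as reported, 169 lost a call and 8 gained one. With a call on either side, 0 turned direction. These values include the methods' t-test after adjustment, under which 0 of all genes tested were called. Few arrays limit all of these calls.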
